A study of Mus musculus with 12 samples.

Results

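The peaks of BAP1 were set against the peaks of ASXL1 in mouse blood progenitors that carried the same ASXL1 construct, and each peak was classed by whether the other protein had a peak at the same place. The members are all peaks of the 4 ChIP-seq peak lists on chromosomes 1 to 19, X and Y, 21401 of the 159554 peaks in the 12 lists of the series. A peak was co-occupied where it overlapped a peak of the other protein by 1 base or more, and otherwise it was BAP1 only or ASXL1 only. With the construct 1-590 there were 3572 BAP1 peaks and 8370 ASXL1 peaks, and with its variant 10RA there were 4875 and 4584. The classes were formed within each construct, and values of the 2 constructs are given side by side with no test between them.

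The cells were c-Kit+ cells from mouse bone marrow, labelled as haematopoietic stem and progenitor cells of genotype mock, stimulated overnight and infected with 2 retroviruses, one for BAP1 and one for an ASXL1 construct. The first construct is residues 1 to 590 of ASXL1, and 10RA is the same stretch carrying a change that the labels call condensation-impaired. BAP1 carried the HA tag in the BAP1 libraries and ASXL1 carried it in the ASXL1 libraries. The labels' descriptions name antibodies to BAP1 or ASXL1, whereas the protocol names an antibody to HA, so the peaks are called here by the library's name. Every list comes from 1 library, the BAP1 and ASXL1 libraries carry different batch labels, and protein and batch cannot be told apart. Both proteins were supplied from retroviruses in all 4 libraries, and no ChIP library of cells without an ASXL1 construct was analysed here. The protein of the same cells' own genes was not separated from the supplied one by these lists. With 1 library in each group no test between groups was possible, and the Wilson 95% intervals given below cover counting error only.

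BAP1 is a deubiquitinase that removes ubiquitin from a lysine of histone H2A, the mark (H2AK119ub) that Polycomb repressive complex 1 places. ASXL1 is its partner: the N-terminal part of ASXL1 binds BAP1 and stimulates its activity, and truncated forms of ASXL1 are frequent in myeloid neoplasms. The complex has been described at gene promoters, to which transcription factors such as FOXK1, FOXK2 and YY1 can bring it. Binding of both proteins to 1 site would place their peaks, and the highest points of the peaks (the summits), at the same position.

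The sequences that follow show what the leading peaks of each class are made of. They are the plus strand of GRCm39 (mm39), at most 300 bases around the summit and inside the peak, and capitals mark bases inside a 32-base word that occurs at more than 1 place in the genome. The first group holds co-occupied regions of 1-590, in an intron of Sfi1 (chr11:3122404-3122703), in the first stretch of chromosome 9 (chr9:3032298-3032597) and outside protein-coding genes on chromosome 3 (chr3:5925590-5925874). Nearly all of the first and second sequence is in capitals.
Sfi1 intron, co-occupied: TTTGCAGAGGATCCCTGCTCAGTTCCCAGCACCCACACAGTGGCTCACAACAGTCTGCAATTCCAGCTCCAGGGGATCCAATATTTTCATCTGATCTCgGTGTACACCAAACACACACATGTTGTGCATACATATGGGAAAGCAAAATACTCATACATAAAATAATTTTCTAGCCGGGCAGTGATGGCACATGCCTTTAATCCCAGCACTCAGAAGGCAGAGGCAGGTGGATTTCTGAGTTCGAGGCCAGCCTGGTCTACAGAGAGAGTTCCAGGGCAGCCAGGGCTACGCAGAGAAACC
chromosome 9 start, co-occupied: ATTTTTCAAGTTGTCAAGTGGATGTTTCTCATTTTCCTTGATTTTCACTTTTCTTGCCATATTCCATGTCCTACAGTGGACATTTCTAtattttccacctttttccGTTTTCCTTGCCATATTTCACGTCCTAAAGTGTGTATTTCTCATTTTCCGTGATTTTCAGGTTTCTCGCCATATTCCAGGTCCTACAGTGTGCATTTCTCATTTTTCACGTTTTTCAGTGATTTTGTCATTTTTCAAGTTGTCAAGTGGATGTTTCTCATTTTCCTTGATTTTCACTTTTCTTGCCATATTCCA
chromosome 3, co-occupied: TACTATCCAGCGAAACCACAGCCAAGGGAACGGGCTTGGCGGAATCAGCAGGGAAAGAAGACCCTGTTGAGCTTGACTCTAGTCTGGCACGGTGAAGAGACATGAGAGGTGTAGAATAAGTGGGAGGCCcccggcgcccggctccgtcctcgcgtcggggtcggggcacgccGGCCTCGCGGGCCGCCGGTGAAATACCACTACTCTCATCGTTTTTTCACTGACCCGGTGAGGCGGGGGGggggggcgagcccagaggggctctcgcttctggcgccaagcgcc
The strongest BAP1-only peak of 1-590 (chr8:72255875-72256174) is also multi-copy, with 297 of its 300 bases in capitals. By contrast, the ASXL1-only sequences at the promoters of Pgk1 (1-590, chrX:105230395-105230694) and Kmt2a (10RA, chr9:44792167-44792407) have 0 such bases. Other strong ASXL1-only peaks were multi-copy too, such as chr11:5956367-5956555 of 1-590, where all 189 bases would be in capitals.
chromosome 8, BAP1 only: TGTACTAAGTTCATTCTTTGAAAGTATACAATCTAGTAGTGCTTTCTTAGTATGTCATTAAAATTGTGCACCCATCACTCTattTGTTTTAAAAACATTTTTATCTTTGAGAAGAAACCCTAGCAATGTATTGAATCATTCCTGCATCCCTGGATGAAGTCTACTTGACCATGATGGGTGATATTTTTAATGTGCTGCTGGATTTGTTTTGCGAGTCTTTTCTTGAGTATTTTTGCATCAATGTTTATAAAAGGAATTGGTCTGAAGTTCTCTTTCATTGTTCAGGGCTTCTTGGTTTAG
Pgk1 promoter, ASXL1 only: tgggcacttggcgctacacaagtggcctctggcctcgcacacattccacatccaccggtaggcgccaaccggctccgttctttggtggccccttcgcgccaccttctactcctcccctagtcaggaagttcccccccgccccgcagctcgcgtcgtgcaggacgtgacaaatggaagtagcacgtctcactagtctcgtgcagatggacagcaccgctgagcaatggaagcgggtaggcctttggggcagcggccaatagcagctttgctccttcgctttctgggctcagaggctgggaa
Kmt2a promoter, ASXL1 only: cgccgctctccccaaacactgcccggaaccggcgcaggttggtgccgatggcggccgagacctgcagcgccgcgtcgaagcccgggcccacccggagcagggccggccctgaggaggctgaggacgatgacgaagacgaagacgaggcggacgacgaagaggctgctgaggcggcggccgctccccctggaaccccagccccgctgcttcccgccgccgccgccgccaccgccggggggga
The strongest ASXL1-only peak of each construct lay in an exon of Kdm6a and began close to the exon's start, and a weaker Kdm6a peak of 10RA ended close to the end of another exon, so the next 2 sequences show 15 bases on each side of an exon edge, with capitals for the bases under the peak. The first is the start of the exon chrX:18120243-18121021 with 1-590, and the second is the end of the exon chrX:18116946-18117341 with 10RA.
Kdm6a exon start, chrX:18120228-18120257: tttttttctttttaggggcttcACAAAGGT
Kdm6a exon end, chrX:18117327-18117356: TCTAACTCCActcaggtaacaagactagct

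Few peaks of either protein lay where the other protein had one. With 1-590, 148 of 3572 BAP1 peaks (4.14%, 3.54% to 4.85%) overlapped an ASXL1 peak, and 155 of 8370 ASXL1 peaks (1.85%, 1.58% to 2.16%) overlapped a BAP1 peak. With 10RA the counts were 181 of 4875 BAP1 peaks (3.71%, 3.22% to 4.28%) and 190 of 4584 ASXL1 peaks (4.14%, 3.61% to 4.76%). For scale, the ASXL1 list of 1-590 covers 0.0744% of these chromosomes and its BAP1 list covers 0.0450%; the corresponding values of 10RA are 0.0381% and 0.0535%. Some peaks overlapped more than 1 peak of the other list, and the overlaps made up 148 separate regions with 1-590 and 180 with 10RA. The single classes held 3424 BAP1-only and 8215 ASXL1-only peaks with 1-590, and 4694 and 4394 with 10RA.

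The class edge was set by the rule of 1 base, and some pairs lay close to it. The 3 shortest overlaps of 1-590 were 30, 33 and 35 bases long and those of 10RA 34, 37 and 50 bases. The 3 nearest pairs that did not touch were 15, 18 and 59 bases apart with 1-590 and 1, 8 and 22 bases apart with 10RA. The pair 15 bases apart holds the second strongest BAP1-only peak of 1-590, chr8:71601627-71602033, so some single-class peaks are close neighbours of the other protein. Such neighbours were few: 1.40% of BAP1-only and 0.974% of ASXL1-only peaks of 1-590 had a peak of the other list within 1 kb, and 1.11% and 1.12% of those of 10RA. The median BAP1-only peak was 105 kb from the nearest ASXL1 peak with 1-590 and 188 kb with 10RA. The median ASXL1-only peak was 257 kb and 183 kb from the nearest BAP1 peak. Such distances depend on how many peaks the other list holds. The ASXL1 lists held 8370 and 4584 peaks and the BAP1 lists 3572 and 4875.

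Overlap was concentrated among the strongest peaks of each list. Peaks were ranked within their list by the deposited −log10 p of the summit, and then by fold enrichment, the deposited ratio of the fragment pileup at the summit to the local background. Of the 50 highest BAP1 peaks of 1-590, 43 (86.0%, 73.8% to 93.0%) were co-occupied, and of those at ranks 401 to 800, 12 of 400 (3%, 1.72% to 5.17%) were. For ASXL1 with 1-590 the values were 35 of 50 (70%, 56.2% to 80.9%) and 8 of 400 (2%, 1.02% to 3.90%). With 10RA, 46 of the 50 highest BAP1 peaks (92.0%, 81.2% to 96.8%) and 39 of the 50 highest ASXL1 peaks (78%, 64.8% to 87.2%) were co-occupied. In the lowest ranks, from 3201 on, at most 0.538% of the peaks were co-occupied in any of the 4 lists. The 50 highest ASXL1 peaks therefore held 15 peaks with 1-590 and 11 with 10RA that had no BAP1 peak on them, against 7 and 4 among the 50 highest BAP1 peaks.

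**Figure D1:**
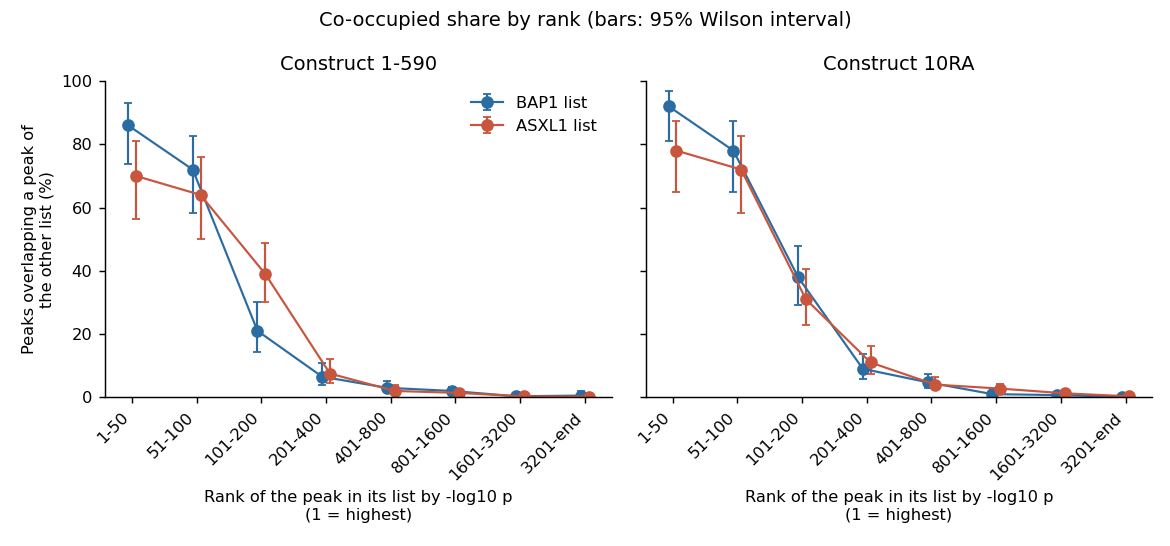
Share of peaks (%, vertical) that overlap a peak of the other protein, by rank of −log10 p within the list (horizontal, 1 is the highest), for BAP1 (blue) and ASXL1 (red) with each construct; bars are Wilson 95% intervals. The share falls from 70% to 92.0% in the first 50 peaks to under 1% in the last group of each list.

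Co-occupied peaks had higher fold, longer intervals and lower q than the single classes. With 1-590 the median fold of co-occupied BAP1 peaks was 3.43 (quartiles 2.81 to 4.16) against 2.73 (2.58 to 2.96) for BAP1 only. Co-occupied ASXL1 peaks of 1-590 had a median of 3.54 (2.76 to 4.81) against 2.67 (2.5 to 2.84) for ASXL1 only. With 10RA the medians were 3.46 against 2.62 for BAP1 and 3.70 against 2.97 for ASXL1. The groups overlapped widely in each list: the highest single-class fold was 6.10 and 6.19 for BAP1, but 19.1 and 21.4 for ASXL1. Only the ASXL1 lists thus held single-class peaks near the strongest co-occupied ones, which reached 24.2 and 25.

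The lists reach down to p of 0.001, and most of their peaks miss q of 0.05, the caller's own error rate over a list. Of all BAP1 peaks of 1-590, 12.1% had q of 0.05 or less, and this share was 77.0% (69.6% to 83.1%) among co-occupied and 9.32% (8.39% to 10.3%) among BAP1-only peaks. Of all ASXL1 peaks of 1-590, 16.9% did, with 90.3% of co-occupied against 15.5% of ASXL1-only peaks. With 10RA the share over the whole list was 16.3% for BAP1, with 88.4% of co-occupied against 13.5% of BAP1-only peaks. For ASXL1 with 10RA it was 10.6% over the list, 72.6% among co-occupied and 7.94% among ASXL1-only peaks. Most peaks that are in 1 list only are therefore weak calls: the median BAP1-only summit of 1-590 had a pileup of 15 fragments and the median ASXL1-only summit 16, against 24 and 35 in co-occupied peaks. With 10RA the median pileups were 17 and 12 fragments in the single classes and 35 and 22 in co-occupied peaks.

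The background around the peaks differed between the classes as well. The lowest local background in a list, a reading of library depth, was 4.24 and 4.99 fragments per base for BAP1 and ASXL1 with 1-590, and 5.46 and 3.04 with 10RA. A local background above 2 times that level was found at 27.7% of co-occupied against 0.409% of BAP1-only peaks of 1-590, and at 36.1% against 0.828% for ASXL1. With 10RA the shares were 30.4% against 0.533% for BAP1 and 33.7% against 0.706% for ASXL1. Co-occupied regions thus include places where fragments piled up over a wide stretch, and the part of this in the overlap was not tested.

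**Figure D2:**
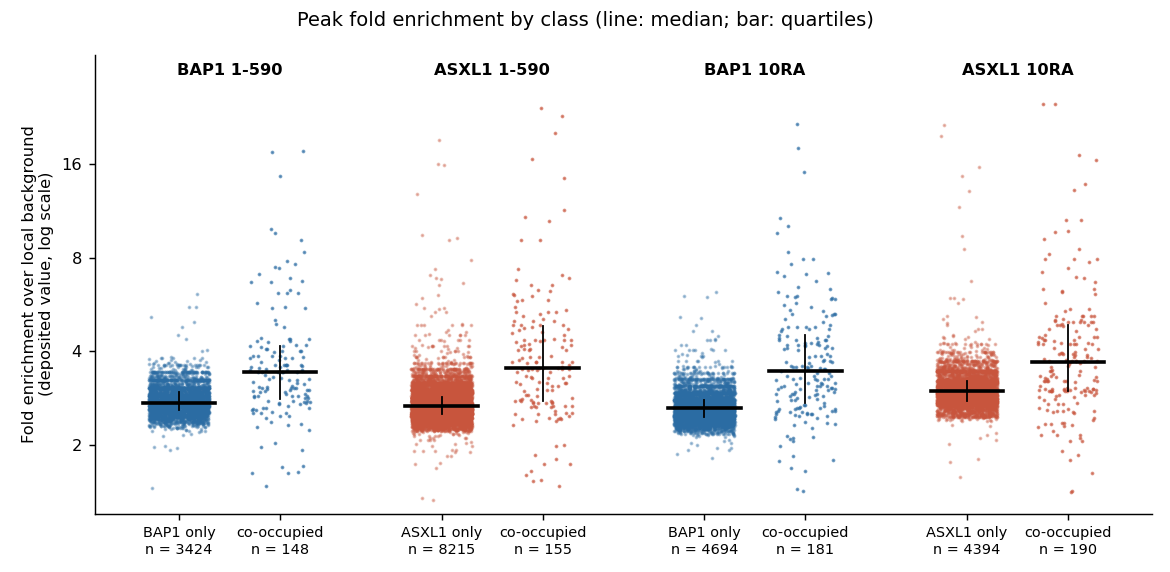
Fold enrichment over local background as deposited (vertical, log scale) of every peak, by list and class; each point is a peak, black lines are medians and quartiles. Co-occupied medians are 3.43 to 3.70 and single-class medians 2.62 to 2.97, and single-class points above 10 occur in the ASXL1 lists.

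Within co-occupied regions the summits of the 2 proteins were close. With 1-590 the 155 overlapping pairs had a median summit distance of 91 bases (quartiles 34 to 294.5), and 79 pairs (51%) were within 100 bases. With 10RA the 191 pairs had a median of 70 bases (quartiles 18.5 to 233.5), and 109 pairs (57.1%) were within 100 bases. The overlap itself had a median length of 345 bases with 1-590 and 261 bases with 10RA. Distances above 500 bases occurred in 18 and 19 pairs, with a maximum of 2511 and 1029 bases. Pairs whose BAP1 peak was multi-copy were closer than the rest: their median distance was 79 bases against 143.5 bases with 1-590 and 47 against 100 bases with 10RA. A peak was multi-copy where the median number of genome places of its 32-base words was above 1. The others are called single-copy, and they can still hold words that occur at many places.

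**Figure D3:**
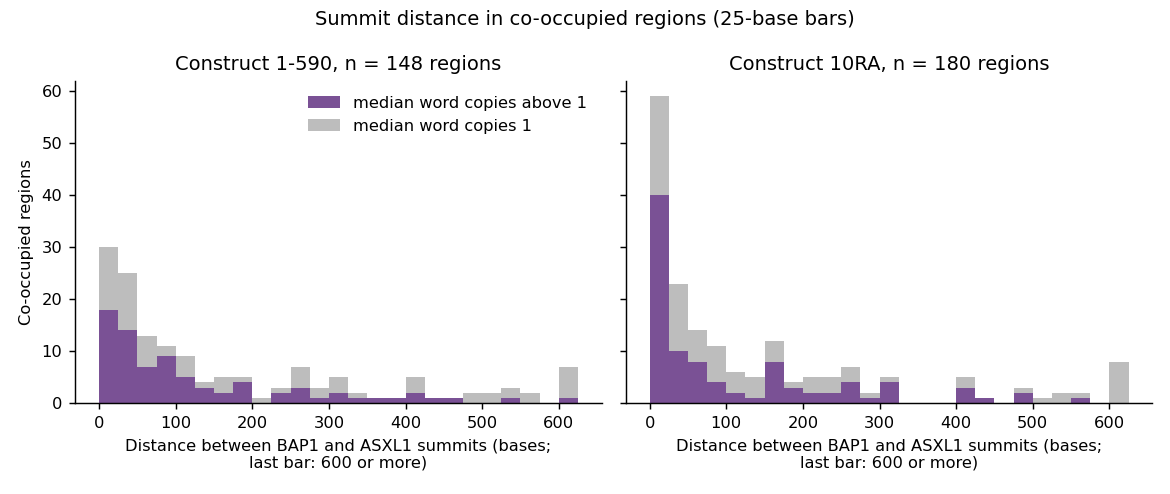
Distance in bases (horizontal) between the BAP1 and ASXL1 summits of co-occupied regions, as numbers of regions (vertical) in bars of 25 bases, with multi-copy regions in purple and single-copy regions in grey. The tallest bar is the first in each panel, and the last bar holds all distances of 600 bases or more.

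The strongest co-occupied regions were largely at the same places with both constructs, and repeated sequence was common among them. Regions were ordered by the lower of their 2 folds. In an intron of Sfi1, which encodes a centrin-binding protein of the centriole, the BAP1 peak of 1-590 (chr11:3122327-3122876) had a fold of 17.7 at a pileup of 128 fragments. The ASXL1 peak there had a fold of 22.9 at 207 fragments, with summits 27 bases apart. With 10RA the Sfi1 folds were 21.6 for BAP1 and 16.5 for ASXL1, with summits 5 bases apart. Its 32-base words had a median of 2 places, but together they occurred 238334 further times in the genome, on 36 sequences.

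In an exon of Lars2, which encodes the mitochondrial leucyl-tRNA synthetase, the folds of 1-590 were 17.4 for BAP1 (chr9:123290885-123291252) and 20.1 for ASXL1. With 10RA they were 15.1 and 24.9. The summits were 11 and 21 bases apart. Both the Sfi1 and the Lars2 region overlapped a peak in each of the 8 H2AK119ub lists, so these places were called in all 12 libraries of the series.

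Several leading regions lay in the first 38.1 kb of assembled sequence on chromosome 9. The strongest of them had a BAP1 fold of 14.6 with 1-590 (chr9:3006760-3007411) and an ASXL1 fold of 24.2, and with 10RA 18 and 25. The region at chr9:3032171-3032949 had folds of 9.08 for BAP1 and 14.4 for ASXL1 with 1-590, and 10.1 and 13.2 with 10RA. The sequence around its summit repeats itself every 234 bases with 95.2% identity, as the chromosome 9 sequence printed above shows. The mouse major satellite, the repeat of the DNA beside the centromeres, has a unit of that length; a match to its consensus was not tested. Mouse chromosomes are acrocentric, so the start of an assembled chromosome is the end next to the centromere.

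Other leading regions were on chromosome 3 (chr3:5925408-5925874, folds of 9.92 and 16.6 with 1-590 and 10.7 and 17.1 with 10RA) and on chromosome X near Mid1. The X region (chrX:168776851-168777951) had folds of 7.82 for BAP1 and 10.5 for ASXL1 with 1-590, and 8.35 and 9.16 with 10RA. Both regions overlapped all 8 H2AK119ub lists. A region on chromosome 9 at some distance from the centromere end (chr9:35216542-35216851) had folds of 8.32 and 11.4 with 1-590 and 9.59 and 13.9 with 10RA. Its words occurred 9520 further times in the genome, 4779 of them on 1 unplaced sequence of the assembly. Those of the X region of 1-590 occurred 5412 further times. In both regions the median was 1 place per word, so both count as single-copy here. On chromosome 6, 57730 bases from the start of Ezh2, the gene of a Polycomb methyltransferase, a region of 10RA (chr6:47629866-47630193) had folds of 7.89 for BAP1 and 7.93 for ASXL1 with summits at the same base. With 1-590 that place had only an ASXL1 peak, with a fold of 7.34. The words of the 10RA region had a median of 17 places and occurred 40681 further times in the genome. On chromosome 17 the peaks with the most fragments included a stretch annotated with Rn18s-rs5, a ribosomal RNA sequence, where the 1-590 pileups were 392 fragments for BAP1 and 634 for ASXL1 (chr17:40158413-40158836). The local background there was 33.7 and 47.8 times the library's lowest, so its folds were only 2.73 and 2.65. Fragments were thus many and the ratio to the surroundings small at the ribosomal sequence.

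Co-occupied regions stood close to each other along the chromosomes. Of co-occupied BAP1 peaks of 1-590, 62.2% were in groups of 3 or more co-occupied peaks spaced by at most 100 kb, against 7.16% of BAP1-only peaks grouped in the same way. For ASXL1 the shares were 67.7% against 21.4% with 1-590, and with 10RA they were 69.6% against 9.37% for BAP1 and 73.2% against 6.65% for ASXL1. Among the single classes the share was highest in the longest list, that of ASXL1 with 1-590. The spacing depends on how many peaks a class holds, and the co-occupied class is by far the smallest.

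Some of the larger groups lay at genes of a family and others did not. The group at Sfi1 and Drg1 on chromosome 11 held 11 regions with 1-590 (chr11:3051096-3149947) and 13 with 10RA. A group around Gm8126 on chromosome 14 held 10 and 16 regions, while one near Tcp10c and Afdn on chromosome 17 held 9 with 1-590 (chr17:13544943-13811773). With 10RA a longer stretch there, which also reached Smok2a and Smok2b, held 15 (chr17:13401350-13811765), and the Smok2a place formed a separate group of 2 regions with 1-590. Tcp10c and the Smok kinases belong to the t-complex region of mouse genetics. Groups on chromosome 4 lay at zinc finger genes: 8 and 10 regions at Zfp992 and Zfp981, and 5 and 12 at Zfp978 and Zfp988. The start of chromosome 9 held 8 and 11 regions, and the Mid1 locus 8 and 6. On chromosome 1 a group of 5 regions with 1-590 lay at Hjurp, Mroh2a and Trpm8 (chr1:88177285-88216380), and one of 8 with 10RA extended from there to the Ugt1a genes (chr1:88139709-88237412). In the Sfi1 group 10 of 11 regions were single-copy by the word count and 10 of 11 were in an H2AK119ub list. None of the 10 regions of the Gm8126 group was single-copy with 1-590.

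The first 3300 kb of a chromosome, a width chosen after the peaks were seen, held 16.9% of co-occupied BAP1 peaks of 1-590 against 0.672% of BAP1-only peaks. It held 18.1% of co-occupied against 0.487% of ASXL1-only peaks. With 10RA the shares were 19.3% against 0.383% for BAP1 and 18.4% against 0.614% for ASXL1.

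Repeated sequence was far more frequent in the co-occupied class. Multi-copy peaks made up 53.4% (45.4% to 61.2%) of co-occupied and 4.96% (4.29% to 5.74%) of BAP1-only peaks of 1-590. For ASXL1 with 1-590 they made up 51% (43.2% to 58.7%) and 9.67% (9.05% to 10.3%). With 10RA the shares were 53.6% against 6.77% for BAP1 and 47.4% against 7.08% for ASXL1. A tandem repeat, with a shift of 50 to 300 bases and at least 70% identity over 801 bases, was found at 4.05% and 5.16% of co-occupied BAP1 and ASXL1 peaks of 1-590. With 10RA it was found at 6.08% and 6.32%. In the single classes the share was between 0.0455% and 0.128%. A shift of 232 to 236 bases accounted for 5 of the 6 tandem BAP1 peaks of 1-590, 6 of 8 for ASXL1, and 7 of 11 and 7 of 12 with 10RA.

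The single classes of 1-590 lay on opposite sides of the genome's base composition. The median G+C content was 35% in BAP1-only and 48.1% in ASXL1-only peaks of 1-590, against 41.7% of the genome. With 10RA the medians were 45.9% in BAP1-only and 43.8% in ASXL1-only peaks. Co-occupied peaks had medians between 41.8% and 44% in the 4 lists. Because BAP1 and ASXL1 came from different batches, composition, batch and protein cannot be told apart.

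**Figure D4:**
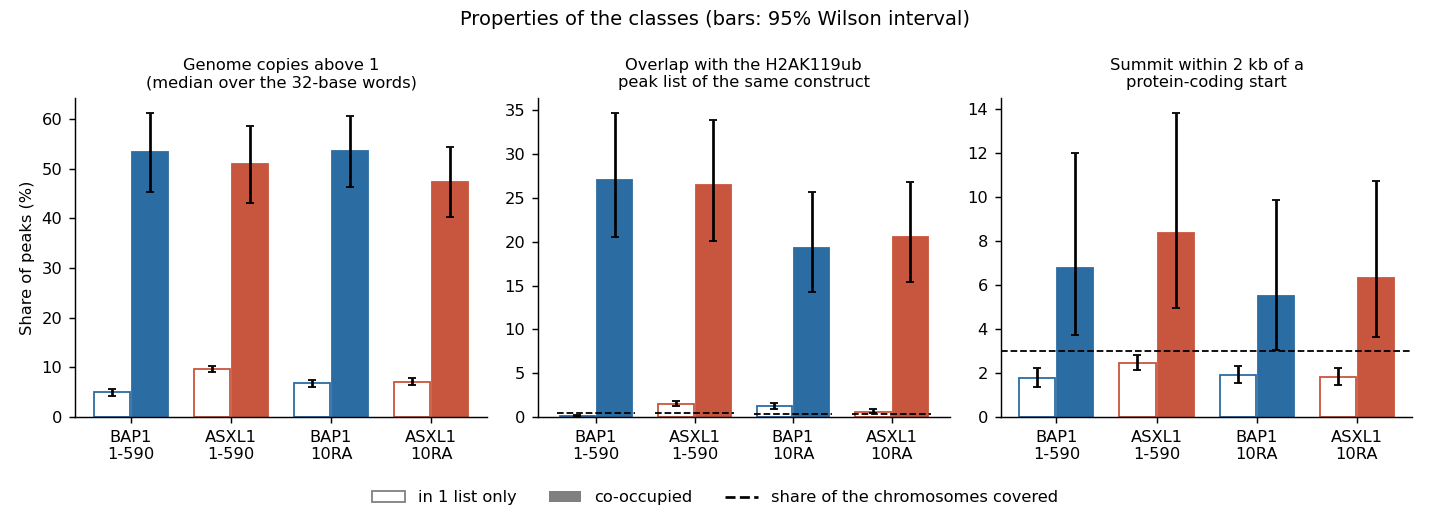
Share of peaks (%, vertical) that are multi-copy, that overlap the H2AK119ub list of the same construct, or whose summit is within 2 kb of a protein-coding start, for peaks in 1 list only (open) and co-occupied peaks (filled); bars are Wilson 95% intervals and dashed lines the share of the chromosomes covered. Filled bars are above open bars in all 12 pairs, with 47.4% to 53.6% against 4.96% to 9.67% for multi-copy peaks.

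H2AK119ub, the substrate of BAP1, was measured in the same kind of cells by CUT&RUN in 8 other libraries, and its peaks lay on co-occupied regions more often than on the rest. With 1-590, 40 of 148 co-occupied BAP1 peaks (27%, 20.5% to 34.7%) overlapped the H2AK119ub list of that construct, against 3 of 3424 BAP1-only peaks (0.0876%, 0.0298% to 0.257%). For ASXL1 it was 41 of 155 (26.5%) against 123 of 8215 (1.5%). That H2AK119ub list covers 0.495% of the chromosomes, and as classed here the BAP1-only share was below and the ASXL1-only share above this figure. Coverage counts single bases and the shares count intervals, which meet a list more often. Coverage is therefore a scale and not an expected value. The BAP1-only share moved above the covered share with another class rule, co-occupied as summits within 100 bases. Of the remaining BAP1 peaks 23 of 3493 (0.658%, 0.439% to 0.986%) then overlapped the list, and this interval includes the covered share. With 10RA, 35 of 181 co-occupied BAP1 peaks (19.3%) and 57 of 4694 BAP1-only peaks (1.21%) overlapped the 10RA list, which covers 0.357%. For ASXL1 the values were 39 of 190 (20.5%) and 26 of 4394 (0.592%). Among strong peaks the shares of both classes were higher. The ratio between the classes was then smaller, and the gap in percentage points was wider, in all 4 lists. At −log10 q of 5 or more in both lists, the list of 1-590 was overlapped by 25 of 47 co-occupied (53.2%) and 1 of 13 BAP1-only peaks (7.69%), and by 26 of 51 (51%) and 26 of 122 (21.3%) for ASXL1. With 10RA the shares were 38.9% of 54 against 12.2% of 74 for BAP1, and 40.0% of 55 against 18.2% of 33 for ASXL1.

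Over all 8 H2AK119ub lists, which include vector controls and constructs other than these 2, 32.4% of co-occupied BAP1 peaks of 1-590 were in none of them, against 99.0% of BAP1-only peaks. For ASXL1 of 1-590 the shares were 32.3% and 95.6%, and with 10RA they were 35.9% and 95.7% for BAP1 and 36.3% and 97.9% for ASXL1. Between 16 and 19 co-occupied peaks of each ChIP list were in all 8 lists. The single classes held 0 such BAP1-only peaks of 3424 with 1-590 (at most 0.112%), 4 of 8215 ASXL1-only peaks, and 1 and 2 peaks with 10RA. The 8 lists include the libraries of cells with empty vector, so places in all 8 were also called without an ASXL1 construct.

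**Figure D5:**
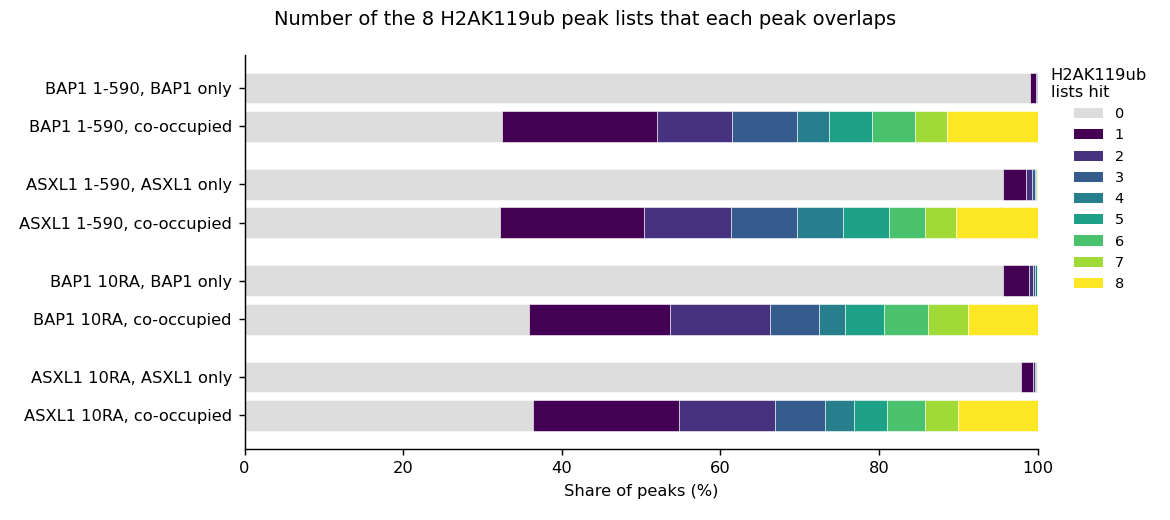
Share of peaks (%, horizontal) by the number of the 8 H2AK119ub peak lists that they overlap (colour, grey for 0), for each ChIP list and class. Grey covers 95.6% to 99.0% of single-class peaks and 32.3% to 36.3% of co-occupied peaks.

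Co-occupied regions also recurred across the ChIP lists. Of co-occupied BAP1 peaks of 1-590, 96 of 148 (64.9%) overlapped a peak in all 4 ChIP lists, as did 100 of 155 co-occupied ASXL1 peaks. With 10RA this held for 105 of 181 (58.0%) and 102 of 190 (53.7%). A peak of the same protein with the other construct lay on 83.1% and 71.6% of co-occupied BAP1 and ASXL1 peaks of 1-590. With 10RA this held for 63.0% and 83.7%. In the single classes the same share was between 0.643% and 1.55%. By the class rule a co-occupied peak is in the lists of both proteins, and a single-class peak cannot be in all 4 ChIP lists. Places in all 4 ChIP lists thus make up most of the co-occupied class, and single-class peaks were mostly seen in 1 ChIP library.

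The promoter of a protein-coding gene was the stretch from 2 kb before its start to 2 kb after it, and all promoters cover 3.01% of the chromosomes. They held the summits of 10 of 148 co-occupied BAP1 peaks of 1-590 (6.76%, 3.71% to 12%) and of 60 of 3424 BAP1-only peaks (1.75%, 1.36% to 2.25%). For ASXL1 of 1-590 they held 13 of 155 (8.39%, 4.97% to 13.8%) and 203 of 8215 (2.47%, 2.16% to 2.83%). With 10RA the shares were 5.52% (3.03% to 9.87%) against 1.90% for BAP1 and 6.32% (3.65% to 10.7%) against 1.80% for ASXL1. Over the whole lists single-class peaks were thus at promoters less often than the covered share, and most co-occupied peaks were elsewhere too. Among stronger peaks the single-class shares were above the covered share in some lists. At q of 0.05 or less, 3.95% of ASXL1-only peaks of 10RA were at promoters. With 1-590 the shares at that q stayed below the covered share, at 1.24% (4 of 323) for BAP1 only and 2.85% (37 of 1298) for ASXL1 only. At −log10 q of 5 or more the single-class shares were 4.92% (6 of 122) for ASXL1 with 1-590, 6.76% (5 of 74) for BAP1 with 10RA and 6.06% (2 of 33) for ASXL1 with 10RA, all above the covered share, and 0 of 13 for BAP1 with 1-590. The counts behind these shares are small, and the interval of the 4.92% (2.27% to 10.3%) includes the covered share. The 10RA shares at −log10 q of 5 or more were also above the 5.56% and 5.45% of co-occupied BAP1 and ASXL1 peaks. Outside protein-coding genes lay 67.6% of co-occupied and 65.0% of BAP1-only peaks of 1-590, and 64.5% and 61.3% for ASXL1. Introns held 17.6% of co-occupied against 30.1% of BAP1-only peaks, and 21.3% against 31.8% for ASXL1. With 10RA introns held 19.3% against 34.2% for BAP1 and 18.9% against 33.6% for ASXL1.

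Summits of both proteins in 1 co-occupied region lay at the promoters of 10 genes with 1-590, which is 0.046% of the 21757 protein-coding genes, and of 9 genes with 10RA, 0.0414%. The strongest was Spata31e2, a member of a spermatogenesis-associated family, with folds of 5.52 for BAP1 and 6.31 for ASXL1 with 1-590, and 4.86 and 6.25 with 10RA. Its summits lay 41 to 105 bases from the start of the gene. Tmem267, a transmembrane protein gene, had folds of 3.87 and 5.80 with 1-590 and 7.63 and 4.98 with 10RA. At Hjurp, which encodes the chaperone that loads the centromeric histone CENP-A, the folds of the strongest peaks were 2.74 and 2.99 with 1-590 and 2.35 and 2.58 with 10RA. The q of both Hjurp peaks of ASXL1 with 10RA was above 0.05. At the start of Sfi1 the folds were 1.70 and 1.85 with 1-590 and 2.14 and 1.86 with 10RA, over a local background at least 40.1 times the library's lowest.

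The other promoters were those of Gm47996, Zfp982, AY761185, Prl2c3, Gm8126 and Gm5799 with 1-590, and of Ugt1a1, AY761185, Prl2c3, Gm8126 and Tcp10c with 10RA. Prl2c3 belongs to the prolactin family and Ugt1a1 encodes the enzyme that conjugates bilirubin. Elobl had an ASXL1 summit of a co-occupied region at its promoter with both constructs, with folds of 3.18 and 3.02, which makes 11 genes (0.0506%) for ASXL1 alone with 1-590. Counting any peak of each protein at the promoter, overlapping or not, gave 12 genes with 1-590 (0.0552%) and 10 with 10RA (0.046%). At AY761185 the words of the BAP1 peak had a median of 311.5 genome places with 1-590 and 150 with 10RA.

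ASXL1-only peaks included a small number of very strong peaks, some in sequence found once in the genome and others in repeated sequence. With 1-590, ranks 3 to 8 of the class by fold had medians of 2, 10, 14, 49, 9 and 5 places per word. With 10RA, ranks 3, 4, 5 and 8 had medians of 2, 15, 11 and 46 places. The strongest ASXL1-only peak lay in an exon of Kdm6a, the X-linked gene for the H3K27 demethylase UTX. With 1-590 this peak (chrX:18120250-18120778) had a fold of 19.1 at 273 fragments, and with 10RA it had a fold of 21.4 at 289 fragments. Its words had 0 further places in the genome, and it was in none of the 8 H2AK119ub lists. The Kdm6a peak started 7 bases after the start of its exon with 1-590 and 4 bases after it with 10RA, as the exon edge printed above shows, and ended 243 and 249 bases before the exon's end. With 10RA a second Kdm6a peak (chrX:18117130-18117336, fold 5.90, 78 fragments) ended 5 bases before the end of its exon. Why these peaks begin or end near exon edges was not tested, and neither was the origin of their fragments. With 1-590 the second Kdm6a peak was at the promoter (chrX:18029293-18029523, fold 5.34, 31 fragments). BAP1 had 0 peaks in Kdm6a or 2 kb around it with either construct. The nearest BAP1 peak to the exon peak was 268228 bases away with 1-590 and 103579 bases away with 10RA.

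The second strongest ASXL1-only peak was at the promoter of Pgk1, which encodes the glycolytic enzyme phosphoglycerate kinase. Its fold was 16 at 204 fragments with 1-590 (chrX:105230336-105230823) and 19.7 at 203 fragments with 10RA. The summit lay 162 and 158 bases from the start of Pgk1, and the nearest BAP1 peak was 48664 and 91468 bases away. The Pgk1 peak overlapped 4 of the 8 H2AK119ub lists, and the origin of its fragments was not tested. A further strong peak lay in an intron of Cmss1 and Filip1l (chr16:57211822-57212033), with folds of 15.9 and 15.7 and a median of 2 places per word.

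Further ASXL1-only peaks were in an intron of Camk2b, a calcium/calmodulin-dependent kinase gene (folds of 7.84 and 14.6), and, with 10RA, at the promoter of Kmt2a. The words of the Camk2b peak had a median of 5 places with 1-590 and 15 with 10RA. They occurred 2661 and 4307 further times in the genome, and the place of origin of the fragments was not tested. Kmt2a encodes the H3K4 methyltransferase MLL1, and its peak (chr9:44792167-44792573) had a fold of 9.40 at 46 fragments and a G+C content of 79.6%. The nearest BAP1 peak was 9199 bases away. A peak of 10RA on chromosome X outside protein-coding genes (chrX:53912013-53913098) had a fold of 11.7, single-copy sequence and an overlap with all 8 H2AK119ub lists. The strongest Kdm6a peak and those at Pgk1, Cmss1 and Filip1l, and Camk2b were in the ASXL1 list of the other construct as well, while Kmt2a was in 1 of the 4 ChIP lists.

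ASXL1-only summits lay at the promoters of 211 genes with 1-590 (0.97%), 38 of them with q of 0.05 or less, and of 87 genes with 10RA (0.4%), 13 of them at that q. After Pgk1 and Kdm6a, the highest folds with 1-590 were 4.51 at Gm21663, 4.01 at Gm8127, 3.88 at Tcp10c, 3.67 at Clec2e and 3.55 at Agtr1b, an angiotensin receptor gene. Or5h24, an olfactory receptor gene, and Ttc9c both had 3.50. With 10RA the highest after Pgk1 and Kmt2a were 4.71 at 1700001F09Rik, 4.64 at the shared promoter of Nit1 and Pfdn2, and 4.27 at Fth1, the ferritin heavy chain gene. Tex11 followed with 3.91 and Pxdn with 3.83. These folds were close to the median of co-occupied peaks. With 1-590 the large step was from Pgk1 to the Kdm6a promoter peak, whose fold was 5.34. With 10RA it was from Kmt2a to the next gene.

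The strongest BAP1-only peaks had lower folds than the strongest ASXL1-only peaks, and they were in repeated sequence. The class medians did not share this order in both constructs. They were 2.73 for BAP1 only and 2.67 for ASXL1 only with 1-590, and 2.62 and 2.97 with 10RA. Folds of different lists come from different batches and depths. With 1-590 the highest was chr8:72255830-72256527, with a fold of 6.10 at 31 fragments, a median of 2 places per word and an ASXL1 peak 769 bases away. The next were chr8:71601627-71602033 and chr9:3018387-3018797, both with a fold of 5.53 at 28 fragments. With 10RA the highest were chr19:39248342-39248596 (fold 6.19, median of 11 places), chr8:20119487-20119807 (fold 6.03, median of 12 places) and chr14:43156158-43156435 (fold 5.96, median of 12 places). Of the 8 strongest BAP1-only peaks, all 8 with each construct had a median above 1 place per word. The first single-copy BAP1-only peak of 1-590 came at rank 10 of its class, at chr15:54051387-54051708, with a fold of 4.01 and a G+C content of 24.2%.

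BAP1-only summits lay at the promoters of 61 genes with 1-590 (0.28%) and 93 genes with 10RA (0.427%), of which 4 and 14 had q of 0.05 or less. With 1-590 the highest folds were 3.43 at Spink14 and Gm14401, 3.34 at the olfactory receptor gene Or4c125, 3.30 at Sst, the somatostatin gene, and 3.24 at Dpm3 and Magea6. With 10RA they were 4.64 at Gm47996 and Gm5799, 3.46 at 4930480E11Rik, 3.25 at Gm61961 and 3.20 at Or6c5. Gm47996 and Gm5799 were co-occupied with 1-590. In no BAP1-only promoter did the fold reach that of Pgk1, Kdm6a or Kmt2a in the ASXL1 lists.

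Single-copy co-occupied regions that were in no H2AK119ub list were few. There were 16 with 1-590 (10.8% of 148 regions) and 27 with 10RA (15% of 180), and 9 and 10 of them reached q of 0.05 for both proteins. The strongest of the latter was in an exon of Tmcc1, an endoplasmic reticulum membrane protein gene (chr6:115999068-115999358). Its folds were 5.04 for BAP1 and 6.76 for ASXL1 with 1-590, with summits 29 bases apart, and 4.80 and 6.36 with 10RA, with summits 36 bases apart. With 1-590 an intron of Sp140l2 followed (chr1:85091856-85092121), with folds of 4.2 and 5.34. With 10RA a region at the start of chromosome 14 followed (chr14:3053543-3053969), with folds of 4.78 and 10.6. Of these subsets 0 of 16 regions with 1-590 and 1 of 27 with 10RA were at a promoter. The remaining regions with q of 0.05 or less included places in the zinc finger groups of chromosome 4, the Tcp10c group and the start of chromosome 16.

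The 12 written gene lists, which hold 271 genes, had 0 co-occupied summits at a promoter and 0 in a gene or 2 kb around it with either construct. Over all protein-coding genes, co-occupied BAP1 summits were in or within 2 kb of 28 genes with 1-590 (0.129%) and 35 genes with 10RA (0.161%), and co-occupied ASXL1 summits of 28 (0.129%) and 36 (0.165%), and read against that share 0 is not a result about the lists. BAP1-only summits were at 0 promoters of the lists with both constructs, and in or within 2 kb of 9 and 14 of the 271 genes (3.32% and 5.17%), against 5.02% and 7.86% of all protein-coding genes. For ASXL1-only summits these counts were 38 (14%) with 1-590 and 14 (5.17%) with 10RA, against 11.9% and 6.85%. ASXL1-only summits were at 7 promoters with 1-590 and 1 with 10RA. The 7 were Kdm6a, Kdm6b, Ebf1, Ermap, Hoxc6, Ctsg and Rag2, and apart from Kdm6a their folds ran from 2.45 at Rag2 to 3 at Kdm6b, at 15 to 17 fragments and with q above 0.05. The 1 with 10RA was Kmt2a. Among the regulators of blood progenitors and leukaemia, 11 of 30 genes held an ASXL1-only summit in or within 2 kb of the gene with 1-590, Kit, Meis1, Runx1 and Tet2 among them, against 11.9% of all protein-coding genes. With 10RA it was 3 of 30 genes, against 6.85%. These are mostly long genes, and length was not taken into account.

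Bap1 and Asxl1 themselves, and the other 11 genes of the list of BAP1 complex members and partners, had 0 co-occupied or BAP1-only summits. Mbd6 with 1-590 and Mbd5 with 10RA each held an ASXL1-only summit, which is 1 of 13 genes (7.69%) against 11.9% and 6.85% of all protein-coding genes. Hox genes, known targets of Polycomb repression, had 0 co-occupied summits in 39 genes. One Hox gene, Hoxa13, held a BAP1-only summit with 1-590 (2.56%, against 5.02% of all protein-coding genes), and 4 held ASXL1-only summits (10.3%, against 11.9%), Hoxa10, Hoxc5, Hoxc6 and Hoxc12. Neither Hox share was above that of all genes. Markers of cell types cannot be read from ChIP peaks as expression, and of the 19 marker genes only Ctsg and Ebf1 had a promoter summit, ASXL1 only with 1-590. The labelled cell type was therefore not checked by these lists. Olfactory receptor genes, which are silent in blood cells, held single-class promoter summits at 12 and 16 of 1193 genes for BAP1 and ASXL1 with 1-590, which is 1.01% and 1.34% against 0.28% and 0.97% of all protein-coding genes. With 10RA it was 10 and 12 genes, 0.838% and 1.01% against 0.427% and 0.4%, and there were 0 co-occupied ones.

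Short motifs of factors that can bring BAP1 to chromatin, or that act in blood progenitors, were counted in the 201 bases around each summit, on both strands. The FOXK motif GTAAACA was in 2.03% of co-occupied and 3.91% of BAP1-only peaks of 1-590, and in 0.645% of co-occupied and 2.52% of ASXL1-only peaks. With 10RA it was in 0 of 181 co-occupied BAP1 peaks and 2.85% of BAP1-only peaks, and in 0.526% and 2.82% for ASXL1. Windows of the same length over the genome held it in 3.01% of cases. The YY1 motif AGATGGC was in 6.08% of co-occupied and 3.33% of BAP1-only peaks of 1-590, and in 7.10% and 6.68% for ASXL1, against 4.80% of genome windows. With 10RA it was in 4.97% and 4.79% for BAP1 and in 4.21% and 5.35% for ASXL1. The ETS motif CCGGAAG was in at most 2 co-occupied peaks of any list, and in 9.51% of windows of this length at protein-coding starts against 0.575% of genome windows. The RUNX motif TGTGGTT was in 2.70% to 4.21% of co-occupied and 4.35% to 5.14% of single-class peaks, against 4.72% of genome windows. The counts behind these co-occupied shares are small, between 0 and 11 peaks. Over the whole peak, which is longer in the co-occupied class, the RUNX order turned in all 4 lists. The RUNX shares of co-occupied against single-class peaks were then 10.8% against 7.01% for BAP1 and 11% against 5.02% for ASXL1 with 1-590, and 16% against 6.97% and 9.47% against 5.62% with 10RA. The YY1 shares over the whole peak were 12.2% against 5.02% and 12.9% against 7.68% with 1-590, and 13.8% against 7.26% and 11.1% against 5.76% with 10RA, where the ASXL1 order also turned. ETS was then in 4 or 5 co-occupied peaks of each list, 2.58% to 3.38%, against 0.496% to 1.06% of single-class peaks. The FOXK share over the whole peak was lower in co-occupied peaks of all 4 lists, but it rested on 4 to 7 co-occupied peaks. The interval of each co-occupied FOXK share included the single-class share. The part of peak length in these shares was not tested.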

How the data were processed

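The deposited files are peak lists of 12 libraries, 1 per condition, of which the 4 ChIP-seq lists are described and the 8 H2AK119ub CUT&RUN lists serve as readouts. Groups follow the sample labels. The submitters' processing notes name MACS3 3.0.3, Picard, SAMtools, Bowtie2 2.5.4 and fastp 0.24.0, without roles, and the genome mm39. A control library, an exclusion list and the handling of multi-mapped reads are not given in the sources used here. For each peak the authors deposited a fold enrichment (a ratio of summit pileup plus 1 to local background plus 1), −log10 p, −log10 q and a score of 10 times −log10 p, which was not used further. All 4 lists reach p of 0.001.

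Pileup and background in fragments were recovered from fold and p. Total reads are not known, and the lowest background stands for depth. Genes are the 21757 protein-coding genes of GENCODE vM39 on GRCm39, and locations are those of the summit (promoter, then exon, intron, outside). Copies are the median number of genome places of a peak's 32-base words. Python 3.11.15, numpy 2.4.6, pandas 2.3.3, scipy 1.17.1 and numba 0.67.0 were used. Overlap (against bedtools 2.31.1), pileup recovery, copy and period functions were tested on simulated data. With 1 library per group no test was made.

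The members and gene lists were chosen with earlier results of these data known. Named are, per construct, the 8 co-occupied regions of highest lower fold, the 8 strongest peaks of each single class, the 8 genes of highest promoter fold per class, members of the written lists with a promoter peak, and Bap1 and Asxl1, from which the text gives the leading ones. Genes given for a class beyond these, the Tmcc1 subset and the ribosomal region were chosen after their values were seen. Alternatives covered overlap, summits, q, list length, sequences, merging, H2AK119ub, copies, promoter width and motif window.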

Additional observations from a re-analysis of the deposited data

Results flagged for a closer look

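Peaks on sequences outside chromosomes 1 to 19, X and Y entered no comparison above, and a larger share of them was co-occupied than the 1.85% to 4.14% on those chromosomes. With 1-590, 49 of 60 BAP1 peaks (81.7%, 70.1% to 89.4%) on these unplaced sequences overlapped an ASXL1 peak, and 53 of 91 ASXL1 peaks (58.2%, 48.0% to 67.8%) overlapped a BAP1 peak. With 10RA the values were 52 of 73 BAP1 peaks (71.2%, 60.0% to 80.3%) and 59 of 76 ASXL1 peaks (77.6%, 67.1% to 85.5%). They are given here as data outside the comparisons with a share above the 3.30% to 5% that a count of 0 would allow (3 counts of the totals), a bar that any sizeable share passes. The peaks stood on 10 and 15 sequences with 1-590 and on 15 and 11 with 10RA. The cause was not tested.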

How the results depend on the processing

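Of 134 values recomputed for the co-occupied class, 76 stayed within the interval of the reported value and 58 moved, each listed here in the order BAP1 1-590, ASXL1 1-590, BAP1 10RA, ASXL1 10RA unless named. Orders that turned included the RUNX motif in all 4 lists and the YY1 motif of ASXL1 10RA over the whole peak. They also included the promoter share of 10RA at −log10 q of 5 or more, and single-class shares against the covered share in some lists, with values in the report. Co-occupied shares were 3.08%, 1.31%, 2.5% and 2.66% with overlap of 50% of both peaks, and 2.21%, 0.944%, 2.24% and 2.38% with summits within 100 bases. They were 25.4%, 8.27%, 16.2% and 27.3% at q of 0.05 or less in both lists, and 78.3%, 29.5%, 42.2% and 62.5% at −log10 q of 5 or more. They were 5.42%, 2.46%, 4.71% and 5.34% on all sequences of the files, and 1.96%, 0.934%, 1.82% and 2.13% for single-copy peaks only. With peaks within 1 kb merged, the share was 1.53% for ASXL1 1-590 and 3.10% and 3.30% with 10RA. With lists of equal length it was 4.06% for ASXL1 1-590. The median summit distance of 1-590 became 34 bases with summits within 100 bases, 60 bases at −log10 q of 5 or more and 155 bases for single-copy peaks. That of 10RA became 38 bases with overlap of 50%, 23 bases with summits within 100 bases and 15 bases at −log10 q of 5 or more. The H2AK119ub overlap of co-occupied peaks was 53.2%, 51%, 38.9% and 40.0% at −log10 q of 5 or more (7.69%, 21.3%, 12.2% and 18.2% in the single classes), and 36.0%, 37.0%, 28.8% and 29.7% on all sequences. It was 17.6%, 16.3%, 11.5% and 11.8% without peaks in all 8 H2AK119ub lists, and 38.5%, 37.1%, 25.9% and 27% for single-copy peaks. Promoter shares of co-occupied peaks were 2.70%, 3.87%, 1.10% and 2.11% with promoters of 1 kb, and 15.5%, 18.7%, 15.5% and 15.3% with promoters of 5 kb. Co-occupied peaks had the higher promoter share under all 11 alternatives with 1-590 and under 10 of 11 with 10RA, the exception being −log10 q of 5 or more, and the higher H2AK119ub overlap under all 9. Of 120 other values, for single classes, folds, motifs and gene lists, 73 stayed and 47 moved. Except where the filter itself sets the value, the cause was not tested. The share of soft-masked bases could not be used because the genome used here has 0 soft-masked bases.

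No paired analysis was possible because each condition has 1 library. Weak peaks dominate the lists, so a missing overlap at this depth does not show absence of the other protein.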
